A study of Homo sapiens with 6 samples.

Results

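The proteasome and immunoproteasome genes were examined in T24 cells, an established human bladder cancer cell line, with and without overexpression of RNF112. They were chosen by name as every gene in the count table whose symbol begins with PSMA, PSMB, PSMC, PSMD, PSME, PSMF or PSMG followed by a number. This gave 54 of the 23152 genes in the table. Of these, 5 belong to the immunoproteasome (PSMB8, PSMB9, PSMB10, PSME1 and PSME2) and 43 are constitutive subunits, activators, inhibitors or assembly chaperones. A further 4 are antisense RNAs named after a proteasome gene and 2 code for other proteins, PSMC3IP and PSME3IP1. The study asked how RNF112, an E3 ubiquitin ligase, changes gene expression in bladder cancer cells, and RNA was sequenced from 3 samples with the empty vector (vector) and 3 samples overexpressing RNF112 (oeRNF112). All 6 samples were T24 cells kept in the same medium. The study's methods describe plasmids for overexpression, while the treatment text attached to the samples describes transfection of siRNA, so the agent is given here as the sample titles name it. Nothing in the sources states that the replicates came from separate cultures, so the p-values measure only the spread between these samples, which may be technical.

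The total counts were 41259569, 40482655 and 40326143 in vector and 40029547, 40541536 and 40375330 in oeRNF112. Levels are given as CPM (counts scaled to a common library size with edgeR's TMM factors) or as RPKM, which is also divided by gene length and allows levels of different genes to be compared. A gene was called higher or lower at an adjusted p under 0.05 in edgeR's quasi-likelihood test, adjusted over 14467 genes (those left after edgeR had removed genes with low counts). RNF112 had 0.683, 0.475 and 0.622 CPM in the vector samples and 718, 899 and 749 CPM in the oeRNF112 samples (log2 fold change 10.37, SE 0.177, adjusted p = 7.4e-10). RNF112 thus followed the labels in all 6 samples, and its reads may include those of the introduced construct. The cells held the simple epithelial keratins, with 55364, 49889 and 64094 counts of KRT7 in vector, and also VIM (179555, 159901 and 177038 counts). The urothelial plaque genes were low, with 4 to 20 counts of UPK1A, 0 to 7 of UPK2 and 0 to 1 of UPK3A over the 6 samples. The epithelial cadherin CDH1 had 0 to 1 counts, while the urothelial factor GATA3 had 117 to 173 counts and EPCAM 66 to 183. UPK1B was not analysed here.

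The proteasome degrades proteins marked with ubiquitin chains. Its barrel-shaped 20S core is built of alpha and beta rings, and 3 of the beta subunits cut the substrate. The 19S regulatory particle recognises ubiquitin, unfolds the substrate with a ring of ATPases and feeds it into the core. In immune cells, and in other cells exposed to interferon, PSMB8, PSMB9 and PSMB10 take the places of the constitutive catalytic subunits PSMB5, PSMB6 and PSMB7 in newly built cores. PSME1 and PSME2 form the PA28 ring that opens the core. Peptides made by this immunoproteasome are loaded onto HLA class I molecules.

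The sequences from 250 bases before to 50 bases after the gene start are shown for 4 immunoproteasome genes, because interferon is known to act on these genes through short elements near the start, and PSMB10 was the member that fell most. They come from RefSeq on GRCh38.p14, are written 5′ to 3′ on the strand of the gene, and carry in capitals each match to the core of the interferon-stimulated response element (GAAA, any 2 bases, GAAA) or to the core of the antioxidant response element (TGACNNNGC) on either strand. PSMB10 lies at chr16:67936801-67937100 (minus strand), PSME2 at chr14:24146561-24146860 (minus strand), PSMB9 at chr6:32853942-32854241 (plus strand) and PSMB8 at chr6:32844630-32844929 (minus strand), each range being the stretch shown.
PSMB10: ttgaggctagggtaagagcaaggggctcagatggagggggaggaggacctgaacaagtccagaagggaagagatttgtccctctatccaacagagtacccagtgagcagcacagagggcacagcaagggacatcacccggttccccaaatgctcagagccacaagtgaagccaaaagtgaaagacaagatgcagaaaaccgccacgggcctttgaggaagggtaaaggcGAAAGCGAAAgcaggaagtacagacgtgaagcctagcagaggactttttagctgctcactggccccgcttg
PSME2: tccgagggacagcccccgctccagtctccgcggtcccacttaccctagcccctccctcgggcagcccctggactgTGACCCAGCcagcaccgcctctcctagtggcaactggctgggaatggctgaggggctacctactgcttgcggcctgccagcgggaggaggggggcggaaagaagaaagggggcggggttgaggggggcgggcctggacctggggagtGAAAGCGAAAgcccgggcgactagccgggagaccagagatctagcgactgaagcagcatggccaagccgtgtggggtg
PSMB9: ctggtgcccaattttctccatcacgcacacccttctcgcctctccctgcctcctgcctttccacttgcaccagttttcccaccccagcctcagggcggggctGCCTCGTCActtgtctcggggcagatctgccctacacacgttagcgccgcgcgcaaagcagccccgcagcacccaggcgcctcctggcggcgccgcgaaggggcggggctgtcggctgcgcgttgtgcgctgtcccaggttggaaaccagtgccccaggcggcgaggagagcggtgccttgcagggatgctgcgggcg
PSMB8: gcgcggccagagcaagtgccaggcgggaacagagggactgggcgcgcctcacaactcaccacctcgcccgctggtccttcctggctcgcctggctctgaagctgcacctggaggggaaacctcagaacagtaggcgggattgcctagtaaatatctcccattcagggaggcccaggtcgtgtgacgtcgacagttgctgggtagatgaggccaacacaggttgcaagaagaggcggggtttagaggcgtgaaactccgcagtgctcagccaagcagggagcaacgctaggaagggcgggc
PSMB10 held GAAAGCGAAA from -21 to -12 relative to its start, and PSME2 the same letters from -28 to -19. PSME1 held this element in the reverse orientation from 5 to 14. In all, 3 of 5 immunoproteasome promoters (60.0%) and 3 of 37 constitutive ones (8.11%) held the interferon-stimulated core, against 3.65% of 27305 promoters of the same length. It was also in 6 of 11 promoters of class I peptide loading genes (54.5%). The shorter TGACNNNGC was found in PSMB9, PSME1 and PSME2 and in 10 of 37 constitutive promoters (27.0%), against 13.6% of all. Neither the gamma-activated sequence (TTCNNNGAA) nor the E-box CACGTG had a match among the 5 immunoproteasome promoters, while 7.88% and 7.43% of all promoters held them. RefSeq promoters were matched to 48 of the 54 genes.

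Of the 54 genes, 52 passed the filter. PSMA8, the testis form of an alpha subunit, and PSMB11, the catalytic subunit of the thymus, had 1 count in 1 vector sample each and were not tested. Among the 14467 genes tested, 18.1% were called in either direction, 9.97% higher (1442 genes) and 8.14% lower (1178 genes) in oeRNF112. Scaling by library totals in place of TMM gave 2020 higher and 659 lower. Among the 52 proteasome rows, 7 were called, of which 6 were lower (11.5%) and 1 was higher. In these bulk samples, fewer cells of a type and less RNA per cell cannot be told apart.

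The immunoproteasome genes were led by a fall of PSMB10, which came down to 48.2% of its vector level, while the other 4 lay lower by smaller amounts that did not pass the test. PSMB10 is the trypsin-like catalytic subunit of the immunoproteasome (gene ID 5699, chr16:67934506-67936850). It had 34.2, 26.8 and 38.7 CPM in the vector samples and 16.3, 19.5 and 12.2 CPM in the oeRNF112 samples. Every oeRNF112 sample was below every vector sample, which was so for 17.9% of all genes tested. The log2 fold change was -1.05 (SE 0.181, 95% interval -1.46 to -0.65, adjusted p = 0.00422). This call held under 14 of 14 alternative settings, with log2 fold changes between -1.21 and -0.89. In the GENCODE annotation another gene on the same strand, AC040162.1, shares 34.8% of the exon bases of PSMB10, and this gene has no row in the count table.

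PSMB8, the chymotrypsin-like subunit, lies beside TAP1 in the HLA class II region of chromosome 6. It had 69.2, 58.0 and 71.5 CPM in vector and 53.3, 62.1 and 46.6 CPM in oeRNF112, so that oeRNF112 replicate 2 lay above vector replicate 2. Its log2 fold change was -0.29 (SE 0.124, 95% interval -0.57 to -0.02, adjusted p = 0.128). PSMB9, its neighbour, which takes the place of PSMB6, had 34.4, 26.9 and 37.4 CPM in vector and 30.4, 34.5 and 25.6 CPM in oeRNF112. The groups of PSMB9 overlapped almost fully, and the log2 fold change of -0.12 (SE 0.146, adjusted p = 0.586) had a 95% interval from -0.45 to 0.20.

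The PA28 genes also lay lower without a call. PSME1 had 226, 192 and 238 CPM in vector and 187, 203 and 160.3 CPM in oeRNF112, with a log2 fold change of -0.25 (SE 0.114, adjusted p = 0.151). PSME2 had 147, 125 and 165 CPM in vector and 124, 141 and 117 CPM in oeRNF112, with a log2 fold change of -0.19 (SE 0.117, adjusted p = 0.278). Both pairs of groups overlapped. PSME2 has 2 pseudogenes in the GENCODE annotation, which makes its counts less certain. In all, 1 of 5 immunoproteasome genes was called lower (20%, against 8.14% of all genes tested) and none higher. An unadjusted p under 0.05 was reached by 3 of them, all lower, and by 4783 of the 14467 genes tested, 2311 of them lower. Their log2 fold changes had a median of -0.25, against 0.00 over all genes tested. Without vector replicate 2, PSMB8 and PSME1 were called too and the count rose to 3, against 1546 of all genes lower.

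**Figure D1:**
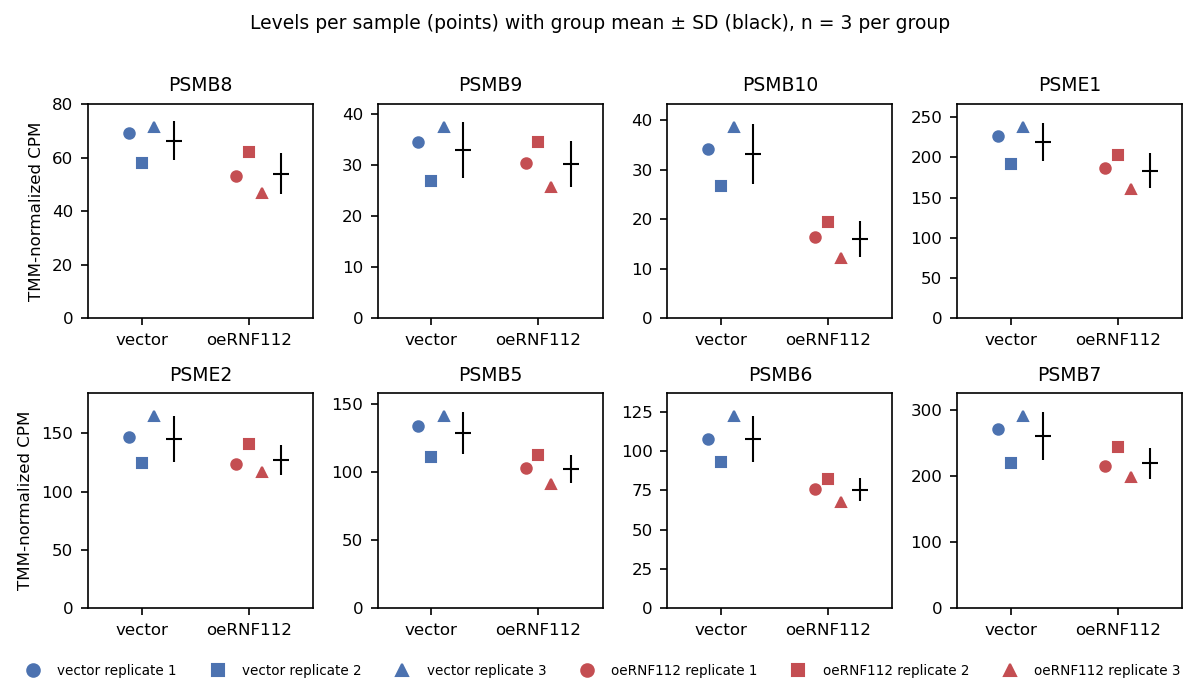
TMM-normalized CPM of the 5 immunoproteasome genes and of PSMB5, PSMB6 and PSMB7 in each sample (points, marked by replicate) with the mean and SD of each group (black, n = 3). The groups are apart in PSMB10 and PSMB6 and overlap in the other 6 genes. All oeRNF112 samples were below all vector samples in 17.9% of all genes tested.

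The level of each immunoproteasome subunit was set against the constitutive subunit whose place it takes. Such a ratio of RPKM values within a sample does not depend on how the libraries are scaled, and it was described with no test. PSMB10 stood at 0.127, 0.123 and 0.134 of the PSMB7 level in vector and at 0.0764, 0.0802 and 0.0618 in oeRNF112. All oeRNF112 values were thus below all vector values, with means of 0.128 ± 0.00567 and 0.0728 ± 0.0097 (SD, n = 3). PSMB9 stood at 0.265, 0.240 and 0.254 of PSMB6 in vector and at 0.331, 0.348 and 0.313 in oeRNF112. Here the oeRNF112 values were all above the vector values, while PSMB6 itself fell and PSMB9 did not pass the test. PSMB8 stood at 0.420, 0.425 and 0.413 of PSMB5 in vector and at 0.421, 0.449 and 0.416 in oeRNF112, and these values overlapped. The ratio in oeRNF112 was 0.57 times that in vector for PSMB10 to PSMB7, 1.31 times for PSMB9 to PSMB6 and 1.02 times for PSMB8 to PSMB5.

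**Figure D2:**
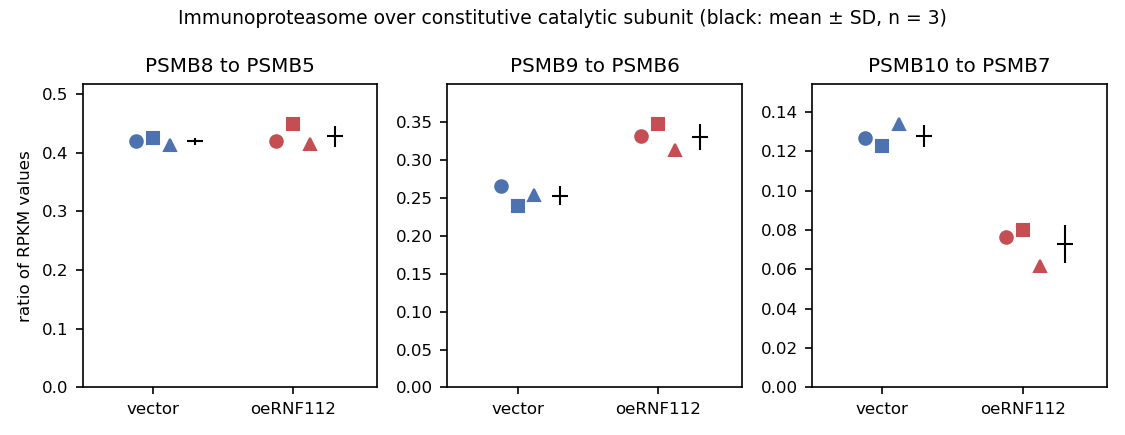
RPKM of each immunoproteasome catalytic subunit divided by RPKM of its constitutive counterpart, per sample (circle, square and triangle are replicates 1, 2 and 3), with the mean and SD of each group in black (n = 3). The PSMB10 to PSMB7 ratio is lower in all oeRNF112 samples, the PSMB9 to PSMB6 ratio is higher in all of them, and the PSMB8 to PSMB5 ratios overlap.

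Of the 41 constitutive genes tested, 4 were called lower (9.76%) and none higher. The share called lower is near the 8.14% of all genes. PSMB6, PSMC3, PSMC4 and PSMC5 were the 4 genes. The fitted change was below 0 in 33 of the 41 genes, with a median log2 fold change of -0.17. With library totals in place of TMM this median was -0.08, while that of all genes tested was 0.10 (0.00 with TMM). DESeq2 called 8 constitutive genes lower, and 1520 of all genes. The count moved most with single samples. It was 16 without vector replicate 2 and 1 without vector replicate 3, where 1546 and 768 of all genes were lower. It was 0 without vector replicate 1, oeRNF112 replicate 1 or oeRNF112 replicate 3, where 359, 431 and 533 of all genes were lower.

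Among the constitutive catalytic subunits, PSMB6 fell to 70.2% of its vector level. PSMB6 carries the caspase-like activity (gene ID 5694, chr17:4796164-4798495). It had 107.5, 93.0 and 122 CPM in vector and 76.2, 82.5 and 67.9 CPM in oeRNF112 (log2 fold change -0.51, SE 0.117, 95% interval -0.77 to -0.25, adjusted p = 0.0159). All oeRNF112 samples were below all vector samples, as in 17.9% of all genes tested. The call on PSMB6 held under 10 of 14 alternatives. Among the samples left out, it was lost without vector replicate 1, oeRNF112 replicate 1 or oeRNF112 replicate 3, with log2 fold changes from -0.61 to -0.41 over all of them. PSMB5, which carries the chymotrypsin-like activity and is the target of bortezomib, had 134, 111 and 141 CPM in vector and 103, 113 and 91.4 CPM in oeRNF112. Its groups overlapped through a single pair of samples (log2 fold change -0.33, SE 0.114, adjusted p = 0.0717). PSMB7, the trypsin-like subunit, had 272, 219.8 and 291 CPM in vector and 215, 245 and 198 CPM in oeRNF112 (log2 fold change -0.25, SE 0.121, adjusted p = 0.182). DESeq2 called PSMB5 too, and edgeR without vector replicate 2 called both PSMB5 and PSMB7, against 1520 and 1546 of all genes lower. PSMB7 was the most abundant of the 3 per length, at 256 ± 32.0 RPKM in vector, against 123 ± 14.9 for PSMB6 and 100.2 ± 10.6 for PSMB5 (SD, n = 3).

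The 4 structural beta subunits lay lower without a call. PSMB4 had 271, 225 and 298 CPM in vector and 211, 220.3 and 187 CPM in oeRNF112 (log2 fold change -0.36, SE 0.115, adjusted p = 0.0561). All its oeRNF112 samples were below all its vector samples, as in 17.9% of all genes tested. PSMB3 had 164, 133 and 183 CPM in vector and 122, 138 and 112 CPM in oeRNF112 (log2 fold change -0.36, SE 0.125, adjusted p = 0.0717). On all 6 samples with its filter, edgeR called none of the 4, and 3 had an unadjusted p under 0.05 (all lower, against 2311 of 14467 genes). DESeq2 called 2, PSMB3 and PSMB4, edgeR with no filter on low counts called PSMB4, and edgeR without vector replicate 2 called PSMB1, PSMB3 and PSMB4. These settings called 1520, 1112 and 1546 of all genes lower. The alpha subunits, which form the gate of the core, showed a similar picture. All 7 tested had a fitted value below 0, between -0.35 for PSMA2 and -0.17 for PSMA7. PSMA2 had 194, 163 and 209.9 CPM in vector and 147, 167 and 132 CPM in oeRNF112 (SE 0.119, adjusted p = 0.0703). PSMA4 had 240.1, 198 and 245 CPM in vector and 182, 204 and 167 CPM in oeRNF112 (log2 fold change -0.30, SE 0.11, adjusted p = 0.0844). In both genes oeRNF112 replicate 2 lay above vector replicate 2. PSMA6 and PSMA2 have 4 and 3 pseudogenes, and the ATPase gene PSMC1 has 13, so reads of these genes could be split with near-identical copies. On all 6 samples edgeR called none of the 7, and 2 had an unadjusted p under 0.05 (both lower, against 2311 of 14467 genes). DESeq2 called 1 (PSMA2). Without vector replicate 2 edgeR called PSMA2 and PSMA4, and without oeRNF112 replicate 2 it called PSMA2, against 1546 and 1010 of all genes lower. PSMA7 was the most abundant proteasome gene per length, at 429 ± 52.5 RPKM in vector and 407 ± 49.1 RPKM in oeRNF112 (SD, n = 3).

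The 19S ATPases, the ring that unfolds substrates, held 3 of the 4 constitutive calls, so that 3 of its 6 genes were called lower, against 8.14% of all genes. PSMC3 had 275, 233 and 292 CPM in vector and 198, 228 and 192 CPM in oeRNF112 (log2 fold change -0.37, SE 0.109, adjusted p = 0.0411). PSMC5 had 178, 156 and 202 CPM in vector and 142, 143 and 134 CPM in oeRNF112 (log2 fold change -0.36, SE 0.104, adjusted p = 0.0394). PSMC4 had 91.5, 85.5 and 100.1 CPM in vector and 73.4, 78.7 and 66.9 CPM in oeRNF112 (log2 fold change -0.34, SE 0.0975, adjusted p = 0.0386). In these 3 genes all oeRNF112 samples were below all vector samples, as in 17.9% of all genes tested. Each stood between 77.3% and 79.1% of its vector level. The median over the 6 ATPase genes was -0.31, and 5 of them had an unadjusted p under 0.05 (all lower, against 2311 of 14467 genes). Without vector replicate 2 edgeR also called PSMC1 and PSMC6, so that 5 of the 6 were lower, against 1546 of all genes. The calls on PSMC3 and PSMC4 each held under 6 of 14 alternatives and that on PSMC5 under 5. All 3 calls were lost with library totals, with limma on RPKM values, and without vector replicate 1, vector replicate 3, oeRNF112 replicate 1 or oeRNF112 replicate 3, and that on PSMC5 also without oeRNF112 replicate 2. PSMC5 shares 19.5% of its exon bases with FTSJ3 on the opposite strand.

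The non-ATPase subunits of the 19S particle were spread around 0. Of 11 tested, 7 were fitted lower and 4 higher, with a median of -0.11. PSMD13, a lid subunit, had 167, 146 and 187 CPM in vector and 135, 156 and 119.9 CPM in oeRNF112 (log2 fold change -0.28, SE 0.121, adjusted p = 0.133). PSMD4, which binds ubiquitin chains, had 193, 163 and 204 CPM in vector and 162, 171 and 145 CPM in oeRNF112 (log2 fold change -0.23, SE 0.107, adjusted p = 0.168). Both genes overlapped between the groups. PSMD14, the deubiquitinase of the lid, was fitted at 0.11 (95% interval -0.12 to 0.34, adjusted p = 0.479), and PSMD2, a large scaffold subunit, at -0.02 (95% interval -0.21 to 0.17, adjusted p = 0.882). On all 6 samples neither edgeR nor DESeq2 called any of the 11, and 1 (PSMD13) had an unadjusted p under 0.05 in edgeR. Without vector replicate 2 edgeR called PSMD13 and PSMD4 lower, against 1546 of all genes.

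The assembly chaperones and the other activators held no call on all 6 samples. The chaperones of the 19S base, PSMD5, PSMD9 and PSMD10, were fitted between -0.18 and -0.01. Those of the 20S core, PSMG1 to PSMG4, were fitted between -0.22 for PSMG2 (SE 0.11, adjusted p = 0.185) and 0.02 for PSMG3 (SE 0.13, adjusted p = 0.916). PSME3, which forms a nuclear activator ring, had 249, 248 and 257 CPM in vector and 252, 256 and 268 CPM in oeRNF112 (log2 fold change 0.04, 95% interval -0.13 to 0.21, adjusted p = 0.754). PSME4, a large activator of the nucleus, was fitted at 0.16 (SE 0.107, adjusted p = 0.335), and PSMF1, described as an inhibitor, at -0.11 (SE 0.0912, adjusted p = 0.452). On all 6 samples none of these 10 genes was called by edgeR or DESeq2 or had an unadjusted p under 0.05 in edgeR. Without vector replicate 2 edgeR called PSMG2 lower, against 1546 of all genes.

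**Figure D3:**
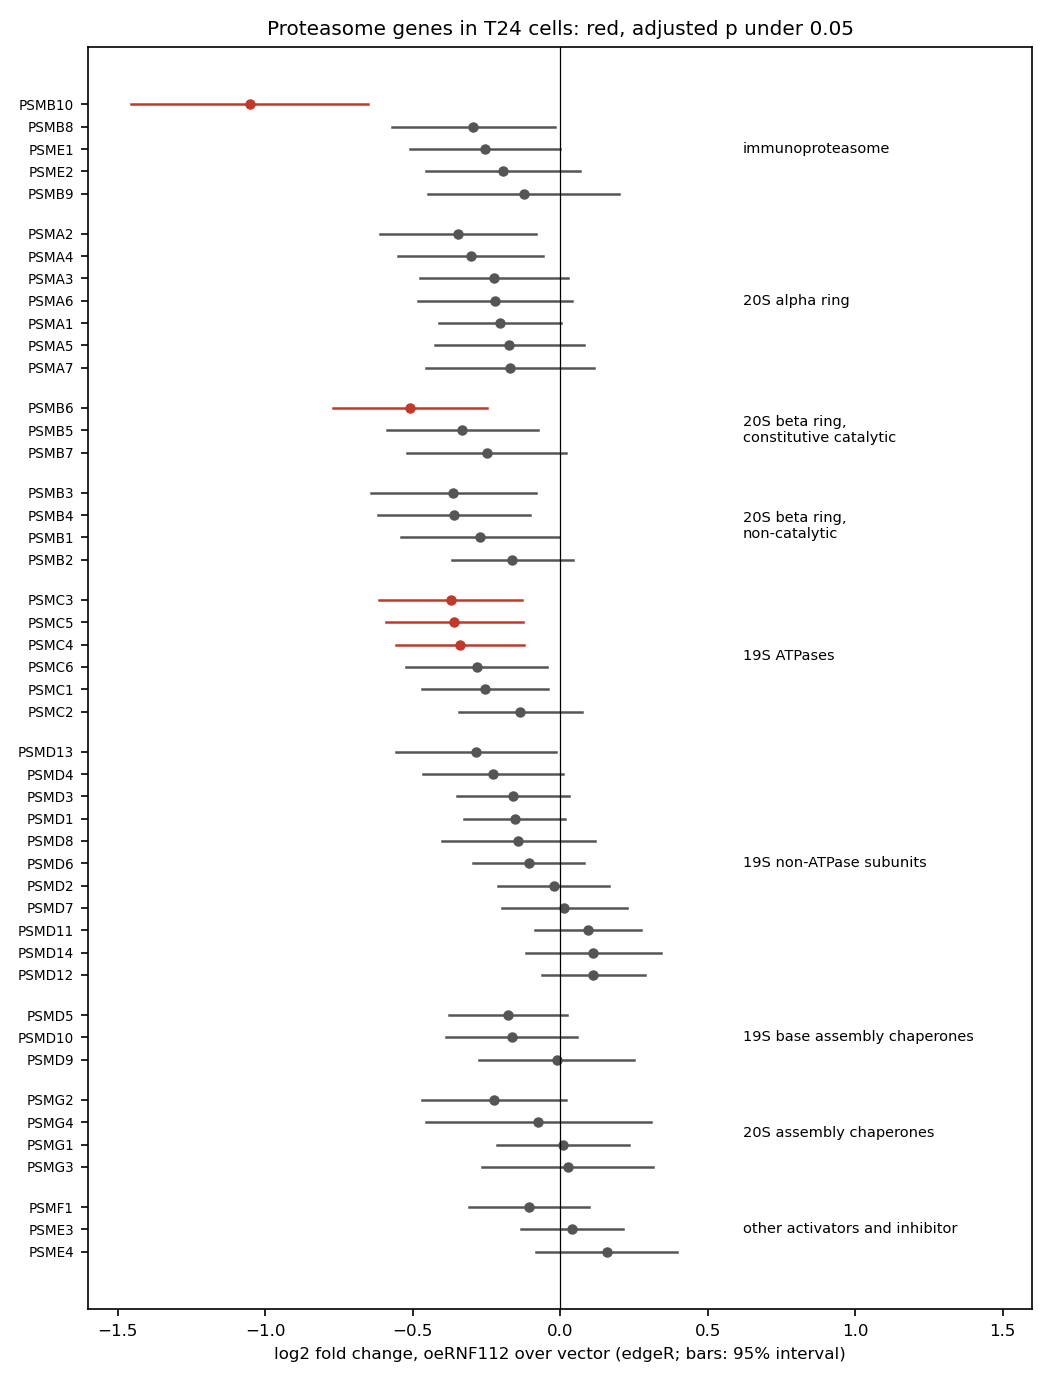
Fitted log2 fold changes (oeRNF112 over vector) of the 46 tested genes of the proteasome by class, with 95% intervals from edgeR's quasi-likelihood test. The genes called (red) are PSMB10, PSMB6, PSMC3, PSMC4 and PSMC5. All core subunits, PA28 genes and ATPases shown are fitted below 0. The 19S base chaperones lie between -0.18 and -0.01, and the other classes hold values on both sides of 0.

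The order of the samples within a group was alike in most of the proteasome genes. Vector replicate 2 was the lowest vector sample in 36 of the 41 constitutive genes (87.8%) and in 5 of the 5 immunoproteasome genes, against 38.4% of all genes tested. Within oeRNF112, replicate 2 was the highest in 34 of the 41 constitutive genes (82.9%) and in 5 of the 5 immunoproteasome genes, against 38.5% of all genes. The median over the 41 genes of log2 CPM minus the vector mean was 0.05, -0.18 and 0.12 in vector replicates 1 to 3 and -0.20, -0.08 and -0.30 in oeRNF112 replicates 1 to 3. Vector replicate 2 thus lay among the oeRNF112 samples for the constitutive genes as a group, and its total count was close to the others. For the 19S ATPases alone it lay at -0.17, above the oeRNF112 samples at -0.29, -0.20 and -0.41. For the immunoproteasome genes the same medians were 0.06, -0.21 and 0.19 in vector and -0.22, -0.09 and -0.44 in oeRNF112. The medians over all genes tested were between 0.00 and 0.01 in all 6 samples. What sets vector replicate 2 apart was not tested.

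**Figure D4:**
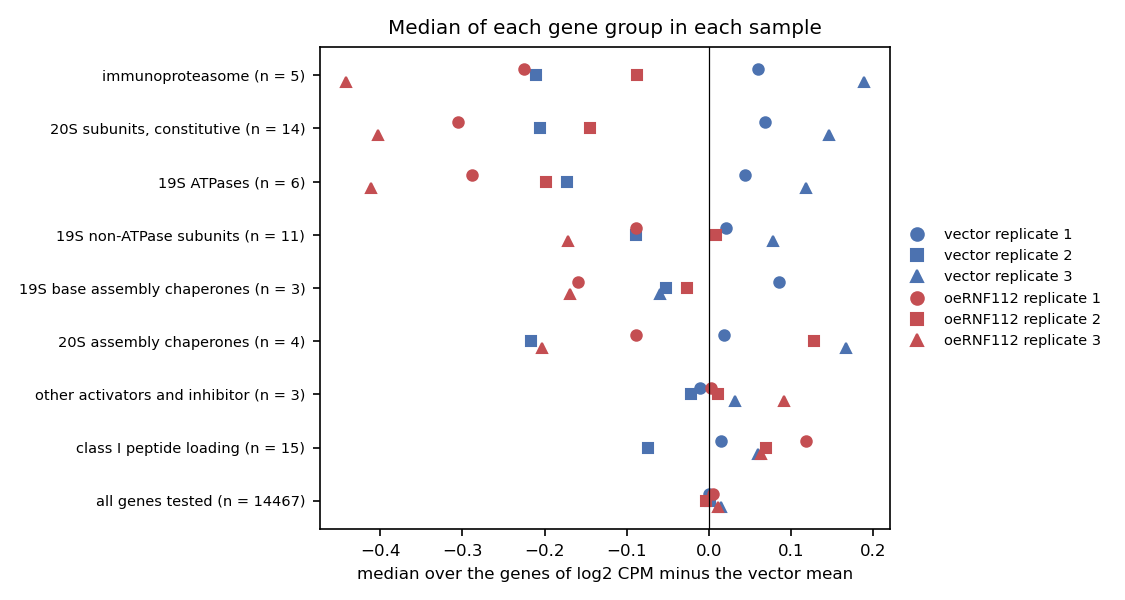
Median over the genes of each class of log2 CPM minus the mean of the vector samples, for each of the 6 samples (blue vector, red oeRNF112, shape by replicate). Vector replicate 2 lies among the oeRNF112 samples for the immunoproteasome genes, the constitutive 20S subunits and the 19S non-ATPase subunits. For the 19S ATPases it lies above them. The median over all 14467 genes is near 0 in every sample.

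Gene length and abundance differed between the proteasome genes and the other genes, and both moved with the fold change. Of the 41 constitutive genes, 24 were in the shortest quartile of the genes tested, as were 5 of the 5 immunoproteasome genes, and 38 of the 41 were in the most abundant quartile. Over all genes, the log2 fold change had a median of -0.11 in the shortest quartile and 0.08 in the longest. The median was 0.16 in the least abundant quartile and -0.06 in the most abundant. The constitutive genes in the shortest quartile had a median of -0.23 and those in the most abundant quartile one of -0.19. The part of length and abundance in the result was not tested.

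The study ranked hallmark gene sets on these RNA data and followed up the MYC targets V1 set, and 14 constitutive proteasome genes are on the hand-written list for the MYC targets V1 set. The study chose that set from its ranking on these same samples, so the list is not independent evidence of its direction. Of the 14 genes, 1 was called lower (PSMC4, 7.14%) and none higher, with a median log2 fold change of -0.19. Of the 27 other constitutive genes tested, 3 were called lower (11.1%), with a median of -0.17. With edgeR on all 6 samples both shares are near the 8.14% of all genes tested, and the difference between these groups of genes was not tested. Of the 14 genes, DESeq2 called 3 lower, edgeR without vector replicate 2 called 5 and library totals gave 0. Of all genes, these settings called 1520, 1546 and 659 lower.

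The rows that carry a proteasome name but code for no subunit held 2 calls among 6 rows, in opposite directions, against 18.1% of all genes called. PSMC3IP, a partner of the recombinases of meiosis, rose from 34.1, 31.9 and 38.7 CPM in vector to 47.0, 51.4 and 44.8 CPM in oeRNF112 (log2 fold change 0.45, SE 0.104, adjusted p = 0.016). It shares 29.9% of its exon bases with MLX on the opposite strand. Its call was lost without vector replicate 1 or oeRNF112 replicate 1. PSMB8-AS1, an RNA antisense to PSMB8, fell from 5.74, 4.38 and 6.09 CPM in vector to 3.59, 3.60 and 3.76 CPM in oeRNF112 (log2 fold change -0.56, SE 0.163, adjusted p = 0.039). The strand setting of the counting is not given in the sources used here. On the opposite strand, 31.7% of its exon bases are shared with PSMB8 and 23.4% with TAP1. On the same strand, 8.92% are shared with PSMB9. Reads in the shared bases cannot be told apart from those of these genes. The call held under 5 of 14 alternatives, and among the samples left out it held only without vector replicate 2. PSMA3-AS1, PSMD6-AS2, PSMG3-AS1 and PSME3IP1 were not called, with adjusted p from edgeR between 0.292 and 0.789.

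Other genes of the pathway were taken from lists by role. Of 18 assembly and associated factors, 2 were called lower (11.1%, near the 8.14% of all genes) and none higher. VCP, the unfoldase that hands substrates to the proteasome, had 568, 565 and 598 CPM in vector and 482, 484 and 461 CPM in oeRNF112 (log2 fold change -0.28, SE 0.0805, adjusted p = 0.0396). TXNL1, a thioredoxin-like protein bound to the 19S particle, had 124, 106 and 125 CPM in vector and 91.6, 100.4 and 86.6 CPM in oeRNF112 (log2 fold change -0.35, SE 0.0986, adjusted p = 0.0367). In both, all oeRNF112 samples were below all vector samples, as in 17.9% of all genes tested. The call on VCP held under 4 of 14 alternatives and that on TXNL1 under 6. Among the samples left out, VCP kept its call only without vector replicate 2, and TXNL1 lost its call without vector replicate 1, vector replicate 3, oeRNF112 replicate 1 or oeRNF112 replicate 3.

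Of 6 genes for ubiquitin and its E1 enzymes, 1 was called in each direction, against 9.97% higher and 8.14% lower of all genes. RPS27A, which codes for ubiquitin fused to a ribosomal protein, was at 71.1% of its vector level (log2 fold change -0.49, SE 0.147, adjusted p = 0.0439), with overlapping groups and with near-identical copies that make its count uncertain. UBA6, an E1 enzyme, was at 133% (log2 fold change 0.41, SE 0.124, adjusted p = 0.0461). The call on RPS27A held under 6 of 14 alternatives and was lost with library totals and with limma on RPKM values, and that on UBA6 held under 9. Among the samples left out, both calls were lost without vector replicate 1, vector replicate 3, oeRNF112 replicate 1 or oeRNF112 replicate 3.

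The genes that control the transcription of constitutive subunits were mostly higher where they were called. NFE2L1 is the factor that raises proteasome genes when the proteasome is short, the small MAF proteins are its partners, and BACH1 competes for the same partners. Of 9 genes listed, 4 rose and 1 fell, against 9.97% and 8.14% of all genes. BACH1 rose from 61.6, 68.4 and 45.2 CPM in vector to 117, 113 and 136 CPM in oeRNF112 (log2 fold change 1.06, SE 0.146, adjusted p = 0.00147). The small MAF genes rose with all oeRNF112 samples above all vector samples, as in 18.9% of all genes tested. MAFK rose by 0.77, MAFF by 0.64 and MAFG by 0.52 on the log2 scale (adjusted p = 0.00101, 0.00383 and 0.00343). These 4 calls held under 14 of 14 alternatives. KEAP1, which holds NFE2L2 back, fell by 0.50 on the log2 scale (SE 0.101, adjusted p = 0.00898), a call that held under 13 of 14 alternatives. NFE2L1 itself had 284, 289 and 275 CPM in vector and 314, 314 and 345 CPM in oeRNF112 (log2 fold change 0.20, SE 0.0818, adjusted p = 0.117). With library totals edgeR called it higher (log2 fold change 0.29, adjusted p = 0.0367), as it did 2020 of all genes. NFE2L2 and DDI2, named with NFE2L1 after their values were seen, were fitted at 0.11 and 0.28 (adjusted p = 0.462 and 0.236).

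The class I peptide loading genes, which act after the immunoproteasome, were higher where they were called, apart from TAPBPL. Of 15 genes, 4 rose and 1 fell (6.67%), against 9.97% higher and 8.14% lower of all genes, with a median log2 fold change of 0.10. HLA-B rose from 56.4, 44.9 and 57.6 CPM in vector to 113, 131 and 108 CPM in oeRNF112 (log2 fold change 1.14, SE 0.119, adjusted p = 0.000389). HLA-F rose by 0.81 and HLA-C by 0.54 on the log2 scale (adjusted p = 0.00259 and 0.00617), calls that held under 14 and 13 of 14 alternatives. TAP1, the peptide transporter whose gene lies next to PSMB9, had 55.2, 51.9 and 56.9 CPM in vector and 66.7, 74.2 and 65.4 CPM in oeRNF112. Its log2 fold change was 0.33 (SE 0.0901, adjusted p = 0.0314), and this call was lost when any sample but vector replicate 3 was left out. All oeRNF112 samples of TAP1 were above all its vector samples, as in 18.9% of all genes tested. The groups of PSMB8 and PSMB9 beside TAP1 overlapped, with fitted changes below 0. TAPBPL, a peptide editor, fell by 0.54 on the log2 scale (SE 0.137, adjusted p = 0.0235), a call lost with limma on log2(RPKM + 0.1) and without vector replicate 1, oeRNF112 replicate 1 or oeRNF112 replicate 2. The HLA genes are near-identical in parts, so reads could be split between them.

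The genes of interferon signalling that lead to the immunoproteasome were called in both directions. Of 12 tested, 1 rose and 1 fell (8.33% each way), which is near the 9.97% higher and 8.14% lower of all genes. IRF9, a factor of the interferon response, rose by 0.39 on the log2 scale (SE 0.104, adjusted p = 0.0284), a call lost without vector replicate 1, oeRNF112 replicate 1 or oeRNF112 replicate 2. IRF1, a factor known to act on the promoters of immunoproteasome and HLA class I genes, fell from 70.4, 65.0 and 68.2 CPM in vector to 39.7, 39.5 and 39.4 CPM in oeRNF112 (log2 fold change -0.78, SE 0.083, adjusted p = 0.000411). The call on IRF1 held under 14 of 14 alternatives. The interferon genes themselves were near the limit of detection, with at most 4 counts of IFNB1 in any sample, and 5, 4 and 2 counts of IFNL1 in vector against 8, 25 and 10 in oeRNF112. IFNG was not analysed here.

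**Figure D5:**
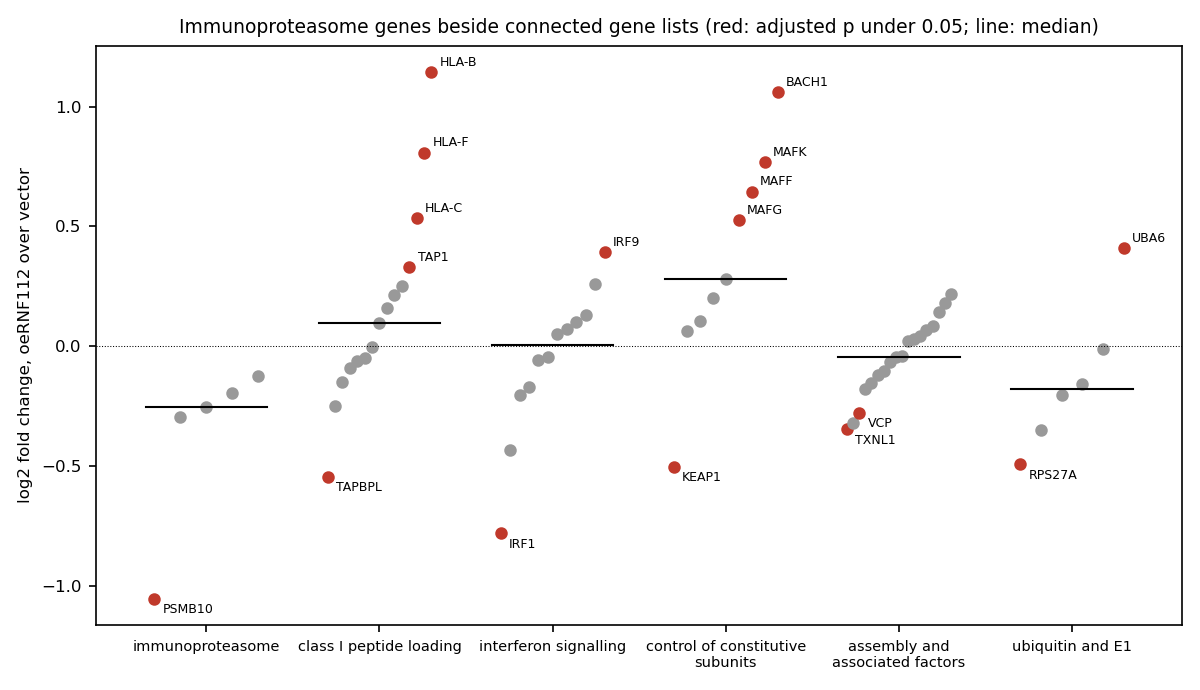
Fitted log2 fold changes (oeRNF112 over vector, edgeR) of the immunoproteasome genes and of the listed genes connected to the proteasome. Red points have an adjusted p under 0.05 and lines mark the median of each list. PSMB10 and IRF1 lie below 0 while HLA-B, HLA-F, HLA-C, TAP1 and IRF9 lie above it.

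Leukocytes carry the immunoproteasome without stimulation, so their markers are given beside these genes. Of 9 leukocyte markers with a row, 5 were tested, of which CD68 rose and LAPTM5 fell, a share of 40% called against 18.1% of all genes. Their summed level was 35.9, 32.2 and 34.3 CPM in vector and 59.5, 70.0 and 55.3 CPM in oeRNF112, and CD68, a lysosomal protein that is not confined to leukocytes, was the most abundant (log2 fold change 1.21, SE 0.12, adjusted p = 0.000312). PTPRC, the defining marker, had 54, 37 and 40 counts in vector and 33, 24 and 26 in oeRNF112. CD3E had no count in any sample but oeRNF112 replicate 3, which had 4, and TYROBP had at most 2 counts. MS4A1 was not analysed here. LAPTM5 lost its call with library totals and without vector replicate 1, vector replicate 3, oeRNF112 replicate 2 or oeRNF112 replicate 3. Of 8 tested markers of T24 cells, EPCAM was called higher and KRT7 and KRT18 lower, a share of 37.5% called against 18.1% of all genes. All 3 calls were lost without vector replicate 1, that on EPCAM also without oeRNF112 replicate 2 or 3, that on KRT18 also without oeRNF112 replicate 1, and that on KRT7 also with limma on RPKM values and without vector replicate 3, oeRNF112 replicate 1 or oeRNF112 replicate 3. Their summed level was 8478, 7530 and 9138 CPM in vector and 6940, 7428 and 5987 CPM in oeRNF112. As in the proteasome genes, vector replicate 2 was the lowest vector sample and oeRNF112 replicate 2 the highest oeRNF112 sample. The part of these markers in the result was not tested.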

How the data were processed

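RNA from 6 T24 samples was sequenced after a stranded mRNA library preparation. Per the labels, the submitters' processing notes name Trimmomatic 0.36, featureCounts, Subread 1.5.1 and the GRCh38 build. The aligner, annotation and strand setting are not given in the sources used here. The authors deposited read counts per gene without normalization, and RPKM values that were proportional to count over total in 20637 of 20637 genes compared (tolerance 0.001). The total counts per sample, from 40029547 to 41259569, set the precision, and a count of 0 allows up to 3 counts (counting error only).

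Counts were tested with edgeR 4.0.16 in R 4.3.3 (filter on low counts, TMM, quasi-likelihood test, Benjamini-Hochberg adjustment over 14467 genes). TMM factors were 0.957 to 0.988 in vector and 1.01 to 1.05 in oeRNF112. SE was the absolute log2 fold change over the root of F. Alternatives were DESeq2 1.42.0, its size factors, library totals, other filters, a replicate block, limma 3.58.1 on log2(RPKM + 1) and log2(RPKM + 0.1), each sample left out in turn, and, for the ratios, counts in place of RPKM. The scripts were tested on simulated data. No sample was a copy of another. Members and lists were chosen with earlier results of these data known. Named genes are RNF112, the proteasome genes, with full values for the immunoproteasome, catalytic and called genes and the 2 smallest p per class, and at most 5 genes with the smallest p per other list, and the listed markers. Lists were described by counts and medians, with no list test. The result of 1 gene of the interferon list is not reported here.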

Additional observations from a re-analysis of the deposited data

How the results depend on the processing

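The medians of the immunoproteasome genes (log2 fold change -0.34 to -0.16) and of the constitutive genes (-0.27 to -0.07) stayed below 0 under every alternative run. The number of constitutive genes called lower was 8 with DESeq2, 1 with library totals, 1 and 1 with limma on log2(RPKM + 1) and log2(RPKM + 0.1), and from 0 to 16 with samples left out. The immunoproteasome count was 1 to 3 with samples left out. Over all genes, 659 were lower with library totals and 669 and 682 with the limma fits. With samples left out, 1061 to 3387 genes differed, 702 to 1841 of them higher and 359 to 1546 lower, the lowest counts being those without vector replicate 1 and the highest those without vector replicate 2. The replicate numbers did not pair the samples (correlations of -0.18, -0.54 and -0.45), and a replicate block gave 876 genes, 618 higher and 258 lower, with 0 constitutive genes called. Under the block the calls on PSMB6, PSMC3, PSMC4, PSMC5, PSMC3IP, PSMB8-AS1, TXNL1, VCP, KEAP1, RPS27A, UBA6, HLA-C, TAPBPL, TAP1, IRF9, KRT7, KRT18 and EPCAM were not made, and the other calls named in the report were. The causes of these moves were not tested. Of 728 values for the 52 proteasome genes, 640 kept direction and side of the threshold, and 27 changed sign in 7 genes that were never called. Among them were PSMD2 (0.0717), PSMD9 (0.0825), PSME3IP1 (0.0563) and PSMG4 (0.0195) with library totals. The same genes changed sign with limma and a pseudocount of 1 (0.0718, 0.0811, 0.0533 and 0.0133) or 0.1 (0.0720, 0.0842, 0.0569 and 0.0247). Scaling by totals, as RPKM also does, moves all genes together (all-gene median 0.10 with library totals). The fitted direction of PSMD2, PSMD9, PSME3IP1 and PSMG4 thus depended on the scaling. Which scaling is right was not tested. With samples left out, the values ranged from -0.0497 to 0.0190 for PSMD2, -0.0580 to 0.0786 for PSMD7, -0.115 to 0.0650 for PSMD9, -0.0828 to 0.0120 for PSME3IP1, -0.0575 to 0.0847 for PSMG1, -0.0875 to 0.125 for PSMG3 and -0.207 to 0.111 for PSMG4. With samples left out, the ratio in oeRNF112 over that in vector ran from 0.541 to 0.613 for PSMB10 to PSMB7, from 1.27 to 1.34 for PSMB9 to PSMB6 and from 0.997 to 1.04 for PSMB8 to PSMB5. Counts in place of RPKM leave this change as it is by construction. At this depth and with 3 samples a group, the smallest change called among the constitutive genes was -0.34 (PSMC4), against their median of -0.17.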
